A study of Mus musculus with 26 samples.

Results

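The mouse egg waits for sperm at metaphase of the second meiotic division (MII), and the transcripts of 1-cell embryos 10 h after fertilisation were compared here with those of such eggs. The comparison took a pair of labelled groups, 4 libraries of MII oocytes and 4 of untreated embryos, and all genes. These are 8 of the 26 libraries in the study. The 37 gene lists used below were chosen with earlier results of these data known, and 23 genes were set to be always named. The oocytes, labelled 0 h, were taken from B6D2F1 females superovulated at 8 weeks of age. The embryos were F2 zygotes from in vitro fertilisation of B6D2F1 oocytes with sperm of mature B6D2F1 males, labelled 10 h and control. Their protocol, 1 h of mixing with sperm and a further 10 h in KSOM medium, adds up to 11 h, and they were collected with both pronuclei visible. The study also held 4 libraries of embryos given alpha-amanitin, a toxin that blocks RNA polymerase II, at 100 µg/ml for those 10 h, and a first series of libraries made for inhibitors of c-Myc. The alpha-amanitin libraries entered the fit to share its estimate of spread, and their values and those of the 7 libraries of untreated embryos of the first series are given beside some results. How many cells went into 1 library is not stated in the labels.

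A full-grown mouse oocyte stores the transcripts it made during growth and transcribes almost nothing at MII. After fertilisation the cell completes meiosis, clears part of the stored RNA, and recruits another part for translation by lengthening its poly(A) tail. Low transcription from the pronuclei, called minor genome activation, begins in the same hours, ahead of the larger wave in the 2-cell embryo.

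Counts per library ranged from 18588226 to 26022296 in oocytes and from 15155120 to 21904203 in embryos, and 13797 to 17108 and 12318 to 13634 genes had a count. The libraries of a group ranked genes more alike in oocytes (median Spearman correlation with the others of the group 0.922 to 0.938) than in embryos (0.831 to 0.866). All 10 oocyte markers had counts in all 8 libraries. Markers of cumulus and granulosa cells, which surround the egg, summed to 142 to 196 CPM (a gene's counts as a share of its library's total, on one scale for all libraries) in oocytes and 134 to 190.4 in embryos. Nr5a2 was most of that sum, and the other markers summed to 30.2 to 57.5 and 15.6 to 78.4 CPM. Of 20 cumulus markers 8 had counts in oocytes only, among them Vim (mean 6.03 CPM, in 2 libraries), Tnfaip6 (3.96, in 2) and Ptgs2 (3.75, in 4). Another 2 had counts in embryos only, Amhr2 (5.84, in 1) and Col1a2 (0.244, in 3), 7 in both groups and 3 in neither (Amh, Lhcgr and Lum). The part of cumulus RNA in the results was not tested. Sperm markers summed to 195 to 281 and 210.0 to 371 CPM, mostly Odf2, and 9 of 16 were at 0 throughout, while Prm2 averaged 11.2 CPM in oocytes and 10.4 in embryos. With 0 counts, a gene's level could still be as high as 0.115 to 0.161 CPM in an oocyte library and 0.137 to 0.198 in an embryo library, for counting error only.

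Between the egg and the 10 h embryo, 8 of 17 measured transcripts of oocyte-secreted factors, egg coat and egg surface fell and none rose, and 6 of 8 mitochondrial mRNAs rose and none fell. The first-series controls did not stand with these embryos for mitochondrial mRNAs. They summed to 1214 to 6419 CPM there, against 2902 to 5052 in oocytes and 8776 to 12443 in second-series control embryos. Bub1b and Gdf9 fell 11.9-fold and 6.47-fold, while Sap30 and Klf17 rose 2.33-fold and 1.90-fold. Of 13133 genes tested, 234 were lower in embryos (1.78% of genes tested) and 146 higher (1.11%) at a Benjamini-Hochberg adjusted p under 0.05 in edgeR's quasi-likelihood F test, together 2.89%. Upper quartile scaling in place of edgeR's TMM gave 205 lower and 220 higher, so that higher genes were 51.8% of the calls in place of 38.4%. Falls were the larger changes: 200 lower genes (1.52% of genes tested) had changed at least 2-fold and 66 at least 4-fold, against 29 (0.221%) and 1 higher genes. The median log2 fold change was -1.55 among lower genes and 0.76 among higher ones, with a median of -0.03 over all genes tested. The 4 oocyte and 4 embryo values did not overlap for any of the 234 lower genes and for 143 of the 146 higher genes. Over all genes tested such separation was seen in 9.5% downwards and 4.97% upwards.

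Together the 234 lower genes held 9.01% ± 0.125 of the counts in oocytes and 3.32% ± 0.140 in embryos (SD, n = 4 each). The 146 higher genes went from 7.46% ± 0.270 to 12.2% ± 0.299. These shares describe the choice of genes and are no test of it. In alpha-amanitin embryos, which share the spread of the fit, the lower genes held 3.84% ± 0.175 (n = 4) and the higher genes 10.5% ± 0.340. The first-series controls, which the choice did not use, held 4.01% ± 0.276 and 10.5% ± 0.374 (n = 7). Both embryo sets thus lay nearer to the control embryos than to the oocytes by these sums, which does not hold for every gene. A CPM is a share of a library, so that fewer cells and less RNA per cell cannot be told apart here, and neither is measured. Rose and fell therefore mean changes of share throughout. A transcript can gain share without gaining RNA when others are lost. The counts of calls moved with single libraries. Without the smallest library, alpha-amanitin library 3 with 5371602 counts, 434 genes were lower and 291 higher. Without 1 oocyte library (1, 2, 3 or 4) they were 149, 163, 162 and 146 lower and 63, 70, 86 and 75 higher, and higher genes numbered 78 without embryo library 2 and 86 without embryo library 4. Of the 380 calls, 195 were lost without at least 1 library, and for each such gene named the libraries and the adjusted p without them are given. Any other alternative that ended the call is given too, except the fit with replicate numbers as a block. Its losses are listed near the end, for genes picked by the naming rule.

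**Figure D1:**
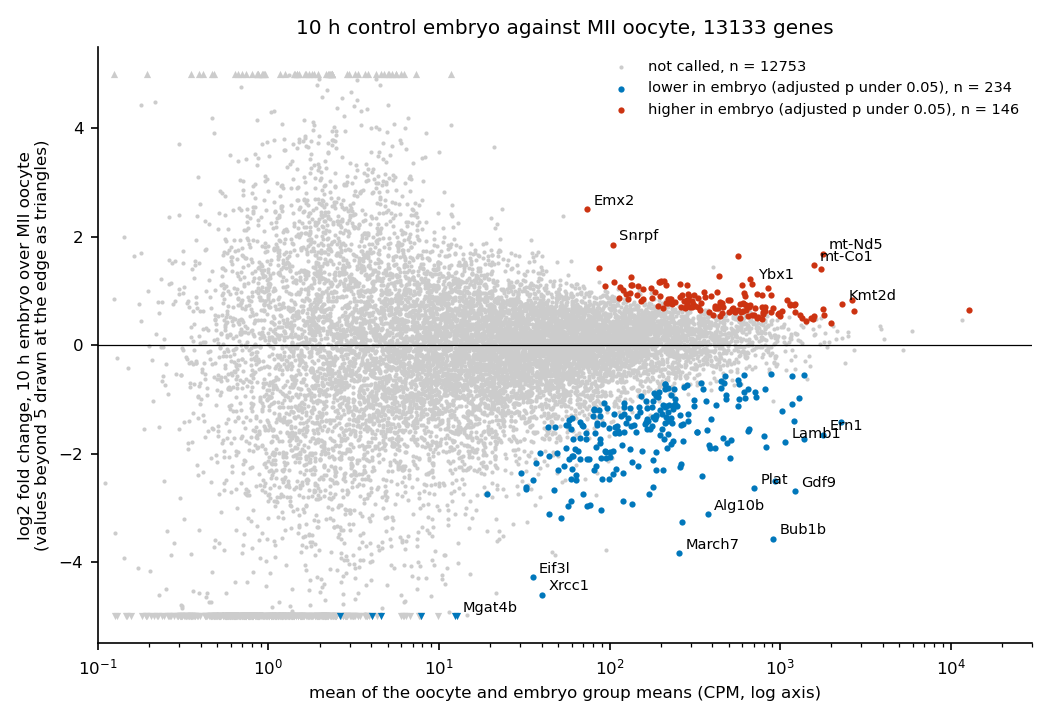
Each point is 1 of the 13133 genes tested, with the mean of the oocyte and embryo group means in CPM (log axis) across and the edgeR log2 fold change of 10 h control embryo over MII oocyte up. Blue marks the 234 lower and red the 146 higher genes, grey the genes not called, and triangles values beyond the axis. All but 4 of the 380 called genes lie above 10 CPM on this scale, and the falls reach farther from 0 than the rises.

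The oocyte's secreted and surface products included several large falls. In the list of oocyte-secreted factors, egg coat and egg surface, 8 of 17 measured members fell and none rose, with a median log2 fold change of -1.11. Gdf9 (chr11:53431023-53437904, GRCm38), a TGF-beta family growth factor that the oocyte sends to its cumulus cells, held 2211, 1957, 2315 and 2005 CPM in oocyte libraries 1 to 4 and 358, 279, 443 and 231 in embryo libraries 1 to 4. All 4 oocyte values lay far above all embryo values (log2 fold change -2.69, SE 0.19, edgeR adjusted p = 6.49e-08), and alpha-amanitin embryos held 657, 506, 409 and 499 CPM. Bmp15, its partner in the same signal, held 2040.1, 1548, 2259 and 1826 CPM in oocytes and 1841, 1899.7, 1995 and 1735 in embryos, and these ranges overlapped (log2 fold change -0.04, SE 0.13, edgeR adjusted p = 0.991). Plat (chr8:22757727-22782844), tissue plasminogen activator, whose stored message is a classic case of translation on maturation, went from 1000.4, 1294, 1083 and 1478 to 254, 197, 212 and 121 CPM. The groups were far apart, and the mean fell 6.20-fold (edgeR adjusted p = 1.67e-07), with 158 to 188 CPM in alpha-amanitin embryos.

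All 3 main proteins of the mouse zona pellucida, the coat that binds sperm, were encoded by falling transcripts. Zp2, the sperm receptor, held 329, 316, 363 and 329 CPM in oocytes and 79.6, 113, 103 and 133 in embryos (log2 fold change -1.65, SE 0.20, edgeR adjusted p = 6.12e-05). Zp3 went from 155 ± 15.8 to 36.6 ± 19.2 CPM (SD, n = 4 each), with a log2 fold change of -2.09 (edgeR adjusted p = 0.00182). Zp1 went from 239 ± 22.2 to 31.2 ± 25.0 CPM, with a log2 fold change of -2.93 (edgeR adjusted p = 0.0461). Zp1 ranged from 11.3 to 64.6 CPM among embryos, and its call was lost without any single oocyte library or embryo libraries 2, 3 or 4 or alpha-amanitin libraries 1 or 2 (edgeR adjusted p = 0.0526 to 0.142) or, with every library kept, with DESeq2 or the robust fit (adjusted p = 0.0883 to 0.173). Astl (chr2:127338639-127357651), the egg protease that cleaves ZP2 after fertilisation and so closes the coat to further sperm, held 187, 186, 194 and 160.4 CPM in oocytes and 34.4, 42.7, 34.7 and 38.0 in embryos. The embryo values lay close together, 4.86-fold below the oocyte mean (edgeR adjusted p = 0.000425). Furin, a protease that activates growth factor precursors, and Fgf8, another oocyte signal to cumulus cells, completed the 8 falls, with log2 fold changes of -1.11 and -1.30. The Fgf8 call was lost without oocyte libraries 1, 2 or 4 or embryo libraries 2, 3 or 4 (edgeR adjusted p = 0.0661 to 0.124).

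**Figure D2:**
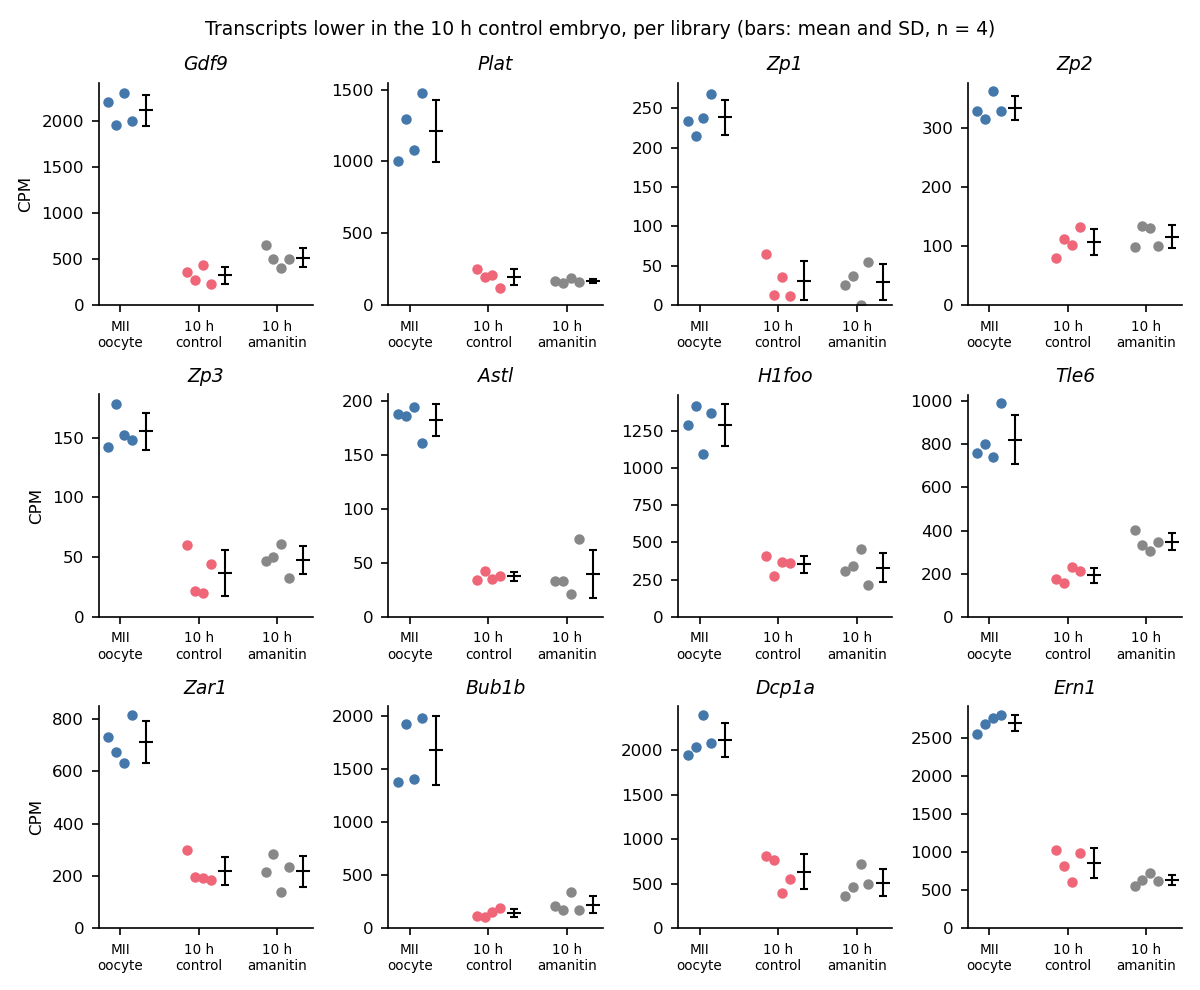
Points are CPM (TMM-scaled, linear axes from 0) of 12 transcripts in the 4 MII oocyte, 4 control embryo and 4 alpha-amanitin embryo libraries, with bars for mean and SD. In each panel all 4 oocyte values lie above all 4 control embryo values, as for Gdf9 with 1957 CPM or more against 443 or less.

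Maternal-effect genes, whose products the embryo needs from the egg, moved in both directions. Of 29 measured, 5 fell and 2 rose, with a median of -0.17. Within the subcortical maternal complex, a protein assembly under the egg membrane, Tle6 (chr10:81590904-81601073) went from 759.9, 799.8, 740.1 and 989 CPM in oocytes to 176, 155, 229.9 and 213 in embryos (log2 fold change -2.09, SE 0.17, edgeR adjusted p = 2.8e-07). Nlrp5, another core member of that complex, held 934 ± 64.1 and 820.1 ± 134 CPM and was not called (log2 fold change -0.19, SE 0.18, edgeR adjusted p = 0.856). Padi6, also tied to the complex, fell (log2 fold change -1.40, edgeR adjusted p = 0.00293). H1foo (chr6:115944938-115950236), the linker histone of the oocyte, held 1289, 1413, 1093 and 1369 CPM in oocytes and 407, 275, 368 and 362 in embryos, a 3.66-fold fall (edgeR adjusted p = 8.9e-06). The somatic-type linker histone Hist1h1a (chr13:23763666-23764406) moved the other way, from 364, 421, 371 and 370.2 to 939.9, 817, 739 and 788 CPM (log2 fold change 1.11, SE 0.14, edgeR adjusted p = 0.000108). The zinc finger gene Sall4 fell by 0.69 on the log2 scale. The risers were Zbed3 (0.65), also of the subcortical complex, and Zfp57 (chr17:37001163-37010635), which keeps methylation at imprinted loci. Zfp57 held 1783, 1973, 1717 and 2100.5 CPM in oocytes and 3695, 3634, 3123 and 2976 in embryos (log2 fold change 0.83, SE 0.11, edgeR adjusted p = 0.000224). Dppa3, which guards the maternal genome from demethylation, held 636 ± 43.7 and 847 ± 238 CPM and was not called (edgeR adjusted p = 0.421).

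Among oocyte members of the NLR family, 2 of 12 fell (4 without alpha-amanitin library 3) and none rose (median -0.22): Nlrp14, with 1574, 1506, 1725 and 1569 CPM in oocytes against 289, 268, 359.7 and 211 in embryos (5.65-fold lower, edgeR adjusted p = 9.31e-07), and Nlrp9a (-1.13). In multicopy oocyte families 4 of 35 fell (8 without alpha-amanitin library 3), the F-box genes Fbxw18 (-1.50), Fbxw15 (-1.36) and Fbxw16 (-1.73, log2) and the homeobox gene Obox2 (2.00-fold lower). The call of Fbxw15 was lost without embryo library 2 (edgeR adjusted p = 0.053) and that of Obox2 without oocyte libraries 1, 3 or 4 or embryo libraries 1, 3 or 4 (edgeR adjusted p = 0.0665 to 0.0766). Their near-identical copies may have exchanged reads, so that single members are uncertain.

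The machinery of meiotic arrest and chromosome segregation changed at a few members. Of 46 genes of arrest, cyclin B control and the anaphase-promoting complex, 2 fell and 1 rose (median -0.14). Without alpha-amanitin library 3 they were 6 and 2, without alpha-amanitin library 1 the falls were 4, and in the 8 libraries alone they were 6 and 1. Of 34 spindle checkpoint, kinetochore, cohesin and separase genes 2 fell and 2 rose (median -0.03), with 4 falls without alpha-amanitin library 4 and in the 8 libraries alone. Bub1b (chr2:118598211-118641591), the checkpoint protein BubR1, held 1382, 1928, 1412 and 1987 CPM in oocytes and 119, 104, 150.2 and 193 in embryos. Its mean fell 11.9-fold (log2 fold change -3.57, SE 0.25, edgeR adjusted p = 6.49e-08), and alpha-amanitin embryos held 210.5, 173, 342 and 169 CPM. Smc3, a subunit of cohesin, the ring that holds sister chromatids together, went from 414, 459.9, 421 and 440.3 to 135, 61.1, 49.0 and 134 CPM (log2 fold change -2.20, SE 0.40, edgeR adjusted p = 0.00289). Pttg1 encodes securin, the inhibitor of the cohesin-cutting protease separase. It held 214, 181, 217 and 173 CPM in oocytes and 349, 396, 374 and 397 in embryos. This 1.93-fold rise (edgeR adjusted p = 0.00966) lost its call without oocyte library 2 (edgeR adjusted p = 0.0575). First-series controls held 227 ± 26.8 CPM of Pttg1 (raw totals, n = 7), against raw means of 197 in oocytes and 369 in embryos. Haspin, a mitotic histone H3 kinase, was 1.86-fold higher (0.90 on the log2 scale), a call lost without oocyte libraries 1, 2 or 3 or embryo libraries 2 or 4 (edgeR adjusted p = 0.0554 to 0.104).

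Mos (chr4:3870657-3872105), the kinase that starts the MAP kinase cascade of MII arrest, held 147, 191, 155 and 216 CPM in oocytes and 28.6, 6.02, 3.00 and 14.1 in embryos. The groups did not overlap, but Mos missed the threshold (log2 fold change -3.78, SE 1.04, edgeR adjusted p = 0.0569), which it passed in 9 of the 25 alternative fits, among them the 8 libraries alone and not DESeq2. Pde3a, the phosphodiesterase that lowers cAMP so that meiosis can resume, fell from 572 ± 28.0 to 267 ± 49.6 CPM (log2 fold change -1.10, SE 0.22, edgeR adjusted p = 0.00719). Cdc27, a subunit of the anaphase-promoting complex, fell by 0.81 on the log2 scale, a call lost without any single oocyte library or embryo libraries 1, 3 or 4 (edgeR adjusted p = 0.0614 to 0.12) or, with every library kept, with upper quartile scaling or counts thinned to the smallest library (adjusted p = 0.0621 to 0.0676). Cdc25a, a phosphatase that activates cyclin-dependent kinases, rose by 0.77, a call lost without oocyte libraries 1 or 3 or embryo library 2 (edgeR adjusted p = 0.053 to 0.0663) or, with every library kept, with no filter (adjusted p = 0.0572). Ccnb1, cyclin B1, the partner of the MII kinase CDK1, held 423 ± 62.8 and 454 ± 74.3 CPM and was not called (edgeR adjusted p = 0.947).

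Genes that store, mask and clear maternal RNA were split as well. Of 39 genes of mRNA storage, masking and polyadenylation 6 fell (3 without embryo library 2) and 2 rose, with a median of 0.09. Zar1 (chr5:72576806-72581254), which binds and protects stored transcripts, held 729, 672, 629.9 and 815 CPM in oocytes and 298, 197, 193 and 185 in embryos (log2 fold change -1.71, SE 0.21, edgeR adjusted p = 6.12e-05). Lsm14b, a partner in the same storage particles, went from 1408, 1492, 1345 and 1529 to 789.7, 551, 634 and 512 CPM (log2 fold change -1.22, SE 0.16, edgeR adjusted p = 0.000154). Cpeb1, which binds the cytoplasmic polyadenylation element (CPE), fell by 0.94 on the log2 scale, and Papola, a poly(A) polymerase, fell by 1.17. Cpsf3, the nuclease of 3′ end cleavage, fell by 1.34, and Igf2bp2, which binds stored mRNAs, fell by 0.81. The Cpeb1 call was lost without any single oocyte library or embryo libraries 1, 2 or 4 or alpha-amanitin library 2 (edgeR adjusted p = 0.0526 to 0.168) or, with every library kept, with upper quartile scaling (adjusted p = 0.0605). The Papola call was lost without embryo library 2 (edgeR adjusted p = 0.0552), and the Cpsf3 call without oocyte libraries 2, 3 or 4 or embryo library 2 (edgeR adjusted p = 0.0524 to 0.0958) or, with every library kept, with no filter or counts thinned to the smallest library (adjusted p = 0.0521 to 0.0543). The risers were genes of Y-box proteins, which coat and package mRNA: Ybx1 (chr4:119277981-119294604) held 293, 424, 408 and 579 CPM in oocytes and 1038, 851, 871 and 989 in embryos (log2 fold change 1.14, SE 0.18, edgeR adjusted p = 0.00082). Ybx3 went from 455 ± 39.4 to 771 ± 94.4 (log2 fold change 0.76, edgeR adjusted p = 0.00377).

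In the decay machinery 4 of 44 fell and 1 rose (median -0.11). Dcp1a (chr14:30479535-30527063), a cofactor of the decapping enzyme made from a stored message on maturation, held 1945, 2042, 2395 and 2084 CPM in oocytes and 815, 773, 399 and 548 in embryos (log2 fold change -1.74, SE 0.21, edgeR adjusted p = 6.31e-05). Upf1, the helicase of nonsense-mediated decay, went from 578, 626, 512 and 674 to 128, 206, 117 and 213 CPM (log2 fold change -1.85, SE 0.20, edgeR adjusted p = 1.51e-05). Cnot1, the scaffold of the CCR4-NOT deadenylase that removes poly(A) tails, fell 2.04-fold, from 493 ± 40.9 to 242 ± 55.8 CPM, and Dis3l, a cytoplasmic exosome nuclease, 2.14-fold (edgeR adjusted p = 0.00117 and 0.00413). Cnot3, another subunit of CCR4-NOT, rose by 0.60 on the log2 scale. Btg4, the adaptor that brings CCR4-NOT to maternal mRNAs, held 1951 ± 96.1 CPM in oocytes and 2346 ± 222 in embryos, and Cnot6l, its deadenylase partner, 911 ± 71.9 and 998 ± 162. Neither passed the threshold (edgeR adjusted p = 0.243 and 0.883). Of the TNRC6 proteins, which link microRNA-loaded Argonaute to CCR4-NOT, all 3 rose. Tnrc6a held 48.5, 47.3, 56.7 and 37.6 CPM in oocytes and 169, 98.8, 87.5 and 152 in embryos (log2 fold change 1.42, SE 0.30, edgeR adjusted p = 0.00914). Tnrc6c went from 214, 297, 215 and 296 to 675, 649.5, 514 and 637 (log2 fold change 1.28, SE 0.23, edgeR adjusted p = 0.0026). Tnrc6b, named after its value was seen, rose by 0.69 (edgeR adjusted p = 0.0479), a call lost without any single oocyte library or any single embryo library or alpha-amanitin libraries 1 or 2 (edgeR adjusted p = 0.052 to 0.182) or, with every library kept, with library totals as scaling (adjusted p = 0.0636).

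The CPE, a U-rich motif near the 3′ end, marks stored mRNAs for poly(A) lengthening on maturation, and its letters are shown for 6 transcripts that fell and 2 that rose. Among the called genes picked by the naming rule 19 that fell and 2 that rose held it, so that the split of the lines shown is no measure. The motif was searched as TTTTAT or TTTTAAT on the transcript strand alone, in the last 100 bases of the annotated 3′UTR (GENCODE vM21, GRCm38), for the protein-coding transcript with the longest coding sequence. Each line gives the last match with up to 8 bases either side, 5′ to 3′ in DNA letters, the motif in capitals.
Gdf9 (chr11:53437858-53437879, + strand), fell: tgctgtggTTTTATgtgacgga
Plat (chr8:22782748-22782770, + strand), fell: tatttataTTTTAATctatttta
Bub1b (chr2:118641557-118641578, + strand), fell: actgtgtaTTTTATaataaaat
H1foo (chr6:115950161-115950182, + strand), fell: tctgaagcTTTTATtgtctaat
Dcp1a (chr14:30527013-30527035, + strand), fell: atatatttTTTTAATaaaatttc
Ern1 (chr11:106394709-106394730, - strand), fell: ttttacagTTTTATaattctgc
Ybx1 (chr4:119278054-119278076, - strand), rose: aacttcatTTTTAATttgtaata
Sap30 (chr8:57482791-57482813, - strand), rose: ttttttttTTTTAATgttgttgt
In Bub1b the motif starts 27 bases from the annotated end and in Gdf9 39. It was present in 62 of 220 lower genes with such a 3′UTR (28.2%), in 26 of 135 higher genes (19.3%), in 19.7% of all 10960 tested genes and in 22.6% of the 3729 with a mean of 50 CPM or more. Both falling and rising transcripts thus held it. The median 3′UTR was 1106 bases in lower and 1532 in higher genes, against 1015 in all tested genes and 1213 in the more abundant ones, so that higher genes lay above both references and lower genes between them. A match is a description of letters, not a site shown to act.

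The largest falls by fold were in genes of diverse roles. Mgat4b, a glycosyltransferase that branches N-glycans, held 27.4, 15.9, 14.8 and 43.4 CPM in oocytes and 0 counts in all 4 embryos. It was at least 636-fold lower against a floor of 3 counts over the 4 embryo libraries, for counting error only (edgeR adjusted p = 0.000634). Alpha-amanitin embryos held 2.66 to 12.1 CPM of it. The 7 first-series controls all held it, at 1.60 to 10.1 CPM (raw totals, mean 6.06), against a raw oocyte mean of 25.4. Abhd17a, a protein depalmitoylase, was at 18.6, 25.3, 26.5 and 28.4 CPM and likewise at 0 in embryos, at least 619.8-fold lower by the same floor. First-series controls held 0.285 to 2.49 CPM of Abhd17a (raw totals, n = 7). Its call was lost without any single oocyte library or embryo libraries 2, 3 or 4 (edgeR adjusted p = 0.0546 to 0.0655). In all, 6 of the 234 lower genes were at 0 in the 4 embryos; the others, named after their values were seen, were Rps21, Limd2, Ost4 and Cntd1. Rps21 had counts in 6 of 7 first-series controls, with a mean of 1.17 CPM against 15.6 in oocytes (raw totals). The Rps21 call was lost without any single oocyte library or embryo libraries 2, 3 or 4 (edgeR adjusted p = 0.0522 to 0.084), and the Limd2 call without oocyte libraries 1, 3 or 4 or embryo libraries 2, 3 or 4 (edgeR adjusted p = 0.0514 to 0.0661). The Ost4 call was lost without any single oocyte library or any single embryo library or alpha-amanitin libraries 1 or 2 (edgeR adjusted p = 0.0586 to 0.128), and the Cntd1 call without any single oocyte library or any single embryo library or alpha-amanitin libraries 1, 2 or 4 (edgeR adjusted p = 0.0543 to 0.125) or, with every library kept, with no filter or counts thinned to the smallest library (adjusted p = 0.089 to 0.131). Eif3l, a subunit of translation initiation factor 3, held 58.4, 80.4, 73.5 and 56.7 CPM in oocytes and 9.42, 1.74, 1.06 and 1.72 in embryos (log2 fold change -4.27, SE 0.79, edgeR adjusted p = 0.00346). Xrcc1, a scaffold of DNA single-strand break repair, went from 59.5, 79.2, 72.7 and 99.1 to 2.57, 8.34, 1.85 and 0 CPM. Its call was lost without any single oocyte library or embryo libraries 1 or 3 (edgeR adjusted p = 0.08 to 0.115) or, with every library kept, with the robust fit (adjusted p = 0.0598). March7, a membrane-bound ubiquitin ligase, held 480.0 ± 141 and 33.6 ± 9.06 CPM.

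Alg10b, a glucosyltransferase that completes the sugar precursor of N-glycosylation, held 623, 530.2, 873 and 672 CPM in oocytes and 63.7, 89.4, 92.5 and 66.7 in embryos, and had the smallest adjusted p of all genes (log2 fold change -3.11, SE 0.20, edgeR adjusted p = 3.66e-08). Atp2c2, a Golgi calcium and manganese pump, fell 7.79-fold, and Arrdc2, an arrestin-domain protein, 7.70-fold (edgeR adjusted p = 0.000555 and 0.000108). Tex2, a lipid transfer protein, fell 9.14-fold, and Mknk1, a kinase of translation factor eIF4E, 7.80-fold (edgeR adjusted p = 0.000443 and 0.000606). Ints9, a subunit of the Integrator complex that cleaves nascent RNA, fell 8.19-fold (edgeR adjusted p = 0.00833). Etnk1, an ethanolamine kinase of phospholipid synthesis, fell 8.63-fold, a call lost without oocyte libraries 1 or 4 (edgeR adjusted p = 0.0514 to 0.0662). Ints9 ranged from 134 to 169.5 CPM in oocytes and from 1.36 to 49.2 in embryos.

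The lists of cell contact, stress signalling, chaperones and lysosomes each had falls and no rise, at 5, 3, 3 and 3 members. Over all genes tested 1.78% were called lower and 1.11% higher, so that no rise in lists of this size says little. Calls also favoured abundant genes, with a median oocyte level of 241 CPM in lower genes against 17.2 in all tested. Of 50 cadherin, laminin and basement membrane genes 5 fell (11 in the 8 libraries alone; median -0.44), and the list's summed level was 5570.4 to 6386 CPM in oocytes and 2785 to 3420.4 in embryos. Lamb1 (chr12:31265234-31329644), a laminin chain, held 1485, 1840.0, 1468 and 1845 CPM in oocytes and 646, 480.1, 402 and 388 in embryos (log2 fold change -1.79, SE 0.16, edgeR adjusted p = 1.64e-06). Its partner chain Lamc1 fell from 240.2 ± 32.6 to 93.2 ± 16.7. Fat1, a giant cadherin, went from 791 ± 98.9 to 234 ± 36.1 CPM. Celsr1, a cadherin of planar polarity, went from 199.9 ± 27.4 to 39.2 ± 21.7, and Cdh1, E-cadherin, the adhesion molecule of the later morula, fell by 1.36 on the log2 scale.

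In the unfolded protein and integrated stress response 3 of 37 genes fell (8 without alpha-amanitin library 3; median -0.74), and their sum was 6992 to 7175 CPM in oocytes against 3407 to 4207 in embryos. Ern1 (chr11:106394650-106487852), the endoplasmic reticulum stress sensor IRE1, held 2559, 2686, 2763 and 2810.3 CPM in oocytes and 1035, 822, 606 and 986 in embryos, with oocyte values close together (log2 fold change -1.65, SE 0.15, edgeR adjusted p = 1.7e-06). Slc7a11, a cystine transporter, fell 3.03-fold, from 488 ± 18.9 to 161 ± 36.3 CPM. Eif2ak1, a kinase of eIF2, fell 1.90-fold, a call lost without any single oocyte library or embryo libraries 2, 3 or 4 (edgeR adjusted p = 0.0606 to 0.105). Among chaperones 3 of 37 fell (5 without alpha-amanitin library 3; median -0.20): Hspa8, the constitutive HSP70, 3.39-fold lower, and Cct5 and Tcp1, subunits of the ring that folds actin and tubulin, with log2 fold changes of -1.97 and -1.55. Of 40 lysosome and autophagy genes 3 fell (median -0.47): Npc1, a cholesterol exporter, from 343 ± 39.7 to 69.3 ± 33.2 CPM, then Atg16l1, which places LC3 on autophagosomes, from 162 ± 22.1 to 38.9 ± 23.4, and Lamp1 by 0.80 on the log2 scale. The Lamp1 call was lost without any single oocyte library or embryo libraries 1, 2 or 3 (edgeR adjusted p = 0.0824 to 0.19) or, with every library kept, with RLE scaling, upper quartile scaling or counts thinned to the smallest library (adjusted p = 0.0535 to 0.0814).

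Transcripts of the cytosolic ribosome and of nuclear-encoded respiration shared a low median but few calls. Of 79 ribosomal protein genes that passed the filter on low counts, 2 fell, Rps21 and Rpl32, and none rose, at a median of -1.39. The Rpl32 call was lost without any single oocyte library or embryo libraries 1, 2 or 3 or alpha-amanitin libraries 1 or 2 (edgeR adjusted p = 0.0622 to 0.256) or, with every library kept, with no filter, upper quartile scaling, limma voom with sample weights or counts thinned to the smallest library (adjusted p = 0.0519 to 0.108). Of all 84 with a count, 77 had a lower mean in embryos. Among the 79 tested, 89.9% had a log2 fold change below 0, against 51.5% of all genes tested, a reference not matched for level. Summed over the list, oocyte libraries 1 to 4 held 2207, 2404, 2153 and 2820.1 CPM. Embryo libraries held 1246, 1178, 1505 and 1381, with no overlap. Alpha-amanitin embryos ranged from 1297 to 1925, and first-series controls from 1548 to 2397, which overlapped the oocytes. Nuclear-encoded oxidative phosphorylation genes summed to 2455, 2368, 2285 and 2610.1 CPM in oocytes and 1407, 1389.7, 1535 and 1481 in embryos, with 65 of 76 lower on average and 1 of 74 called, Sdhd of complex II (-2.22), a call lost without any single oocyte library or embryo libraries 2 or 3 (edgeR adjusted p = 0.0712 to 0.0991). First-series controls held 1149 to 1659 CPM. Among the 74 tested, 85.1% had a log2 fold change below 0, beside the same 51.5% of all genes. The number of falls across settings ranged from 0 to 10 for ribosomal proteins and 0 to 16 for oxidative phosphorylation. Each list had 0 without any single oocyte library and 5 without alpha-amanitin library 3. In glycolysis and pyruvate use 1 of 25 fell (2 without alpha-amanitin library 3), Ldhb (-1.09), a lactate dehydrogenase subunit. Of 49 translation factors 2 fell, Eif3l and Eif3g, and 1 rose (3 without alpha-amanitin library 3), Eif4b. Eif3g held 82.0 ± 19.5 and 12.8 ± 8.18 CPM, a call lost without any single oocyte library or embryo libraries 1, 2 or 4 (edgeR adjusted p = 0.0655 to 0.124). Eif4b, a cofactor of the cap-binding helicase, rose from 326 ± 16.0 to 481 ± 51.0, a call lost without any single oocyte library or embryo libraries 1, 2 or 4 (edgeR adjusted p = 0.0557 to 0.12) or, with every library kept, with no filter (adjusted p = 0.121).

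The mRNAs made from the mitochondrial genome mostly rose. Of 8 mitochondrial mRNAs that passed, 6 rose and none fell, with a median of 1.24, and their sum was 5052, 4855, 2902 and 4914 CPM in oocytes and 8776, 11403, 12443 and 11427 in embryos. mt-Co1, a subunit of cytochrome oxidase, held 803, 943, 574 and 997 CPM in oocytes and 2374, 2309.7, 2317 and 2267 in embryos (log2 fold change 1.48, SE 0.16, edgeR adjusted p = 1.15e-05). Alpha-amanitin embryos held 1316, 975, 1225 and 1339 CPM of mt-Co1, and 5727 to 8877 CPM of the mitochondrial mRNAs in sum. mt-Nd4 and mt-Nd5, of complex I, rose 3.11-fold and 3.23-fold (edgeR adjusted p = 9.27e-06 and 0.00473), and the mt-Nd5 call was lost with edgeR's robust fit (adjusted p = 0.0505). mt-Cytb, of complex III, went from 944 ± 264 to 2508 ± 352 CPM, and mt-Nd1 and mt-Nd2 rose by 1.06 and 0.94 on the log2 scale. The first-series control embryos did not stand with the embryos of the second series here: they summed to 1214 to 6419 CPM, across the oocyte range. In them mt-Co1 was at 1052 ± 461 CPM (raw totals, n = 7) against raw means of 831 in oocytes and 2259 in embryos. The part of the library series in the rise was not tested. Mitochondrial rRNAs and tRNAs had a median of 1.61 over 16 genes, of which edgeR called 0, with 3 at an unadjusted p under 0.05, 2 called by DESeq2 and 3 by limma voom. Their sums overlapped, at 12156 to 19229 CPM in oocytes and 16466 to 24705 in embryos.

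**Figure D3:**
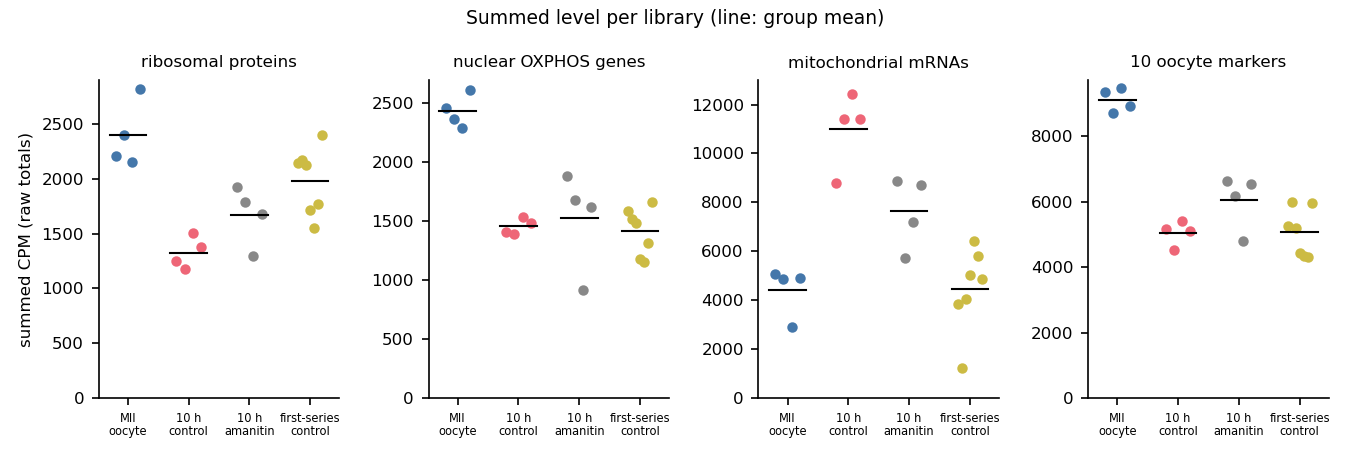
Points are the summed CPM (raw totals, linear axes from 0) of 4 gene lists in each library of the MII oocytes, 10 h controls, 10 h alpha-amanitin embryos and 7 first-series controls, with a line at each group mean. Oocytes and second-series controls do not overlap in any panel, and in the mitochondrial mRNA panel the first-series controls, at 1214 to 6419 CPM, lie at and around the oocytes.

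Among called genes the largest rise was Emx2, a homeobox gene known from brain and urogenital development, with 21.4, 25.7, 26.8 and 14.5 CPM in oocytes and 218, 142, 59.4 and 82.1 in embryos (5.67-fold, edgeR adjusted p = 0.0189). Embryos ranged widely, and the call was lost without oocyte libraries 1, 2 or 4 or embryo libraries 1 or 2 (edgeR adjusted p = 0.0503 to 0.0761). Snrpf (chr10:93583029-93589706), a core protein of spliceosomal snRNPs, rose from 34.1, 75.3, 25.7 and 45.3 to 227, 107, 149.8 and 170.2 CPM (log2 fold change 1.86, SE 0.34, edgeR adjusted p = 0.00316). In its list of 58 spliceosome genes (4 rises without alpha-amanitin library 3, 2 without embryo library 2, and 3 falls without embryo library 3) Prpf8, the central scaffold of the spliceosome, fell from 583 ± 22.2 to 109 ± 23.7 CPM (log2 fold change -2.42, edgeR adjusted p = 2.84e-07). Sap30 (chr8:57482707-57487860), a subunit of the SIN3 histone deacetylase complex, held 299, 458, 356 and 494 CPM in oocytes and 912, 937, 918 and 973 in embryos, with embryo values within a narrow band (log2 fold change 1.22, SE 0.15, edgeR adjusted p = 7.78e-05). Fam133b, Smim11, Zfp532, Rreb1 and Tcl1b3 rose 2.23-, 2.40-, 2.25-, 2.26- and 2.24-fold. Rreb1 is a zinc finger transcription factor and Tcl1b3 a member of a family active in eggs. The call of Smim11 was lost without oocyte libraries 1 or 4 or embryo library 4 (edgeR adjusted p = 0.0711 to 0.0864), and that of Zfp532 without any single oocyte library or embryo libraries 1, 2 or 3 (edgeR adjusted p = 0.0512 to 0.118). The call of Rreb1 was lost without oocyte libraries 1, 3 or 4 or embryo libraries 2 or 4 (edgeR adjusted p = 0.0585 to 0.0861) and that of Tcl1b3 without oocyte libraries 1, 2 or 4 or embryo library 2 (edgeR adjusted p = 0.0511 to 0.0751).

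**Figure D4:**
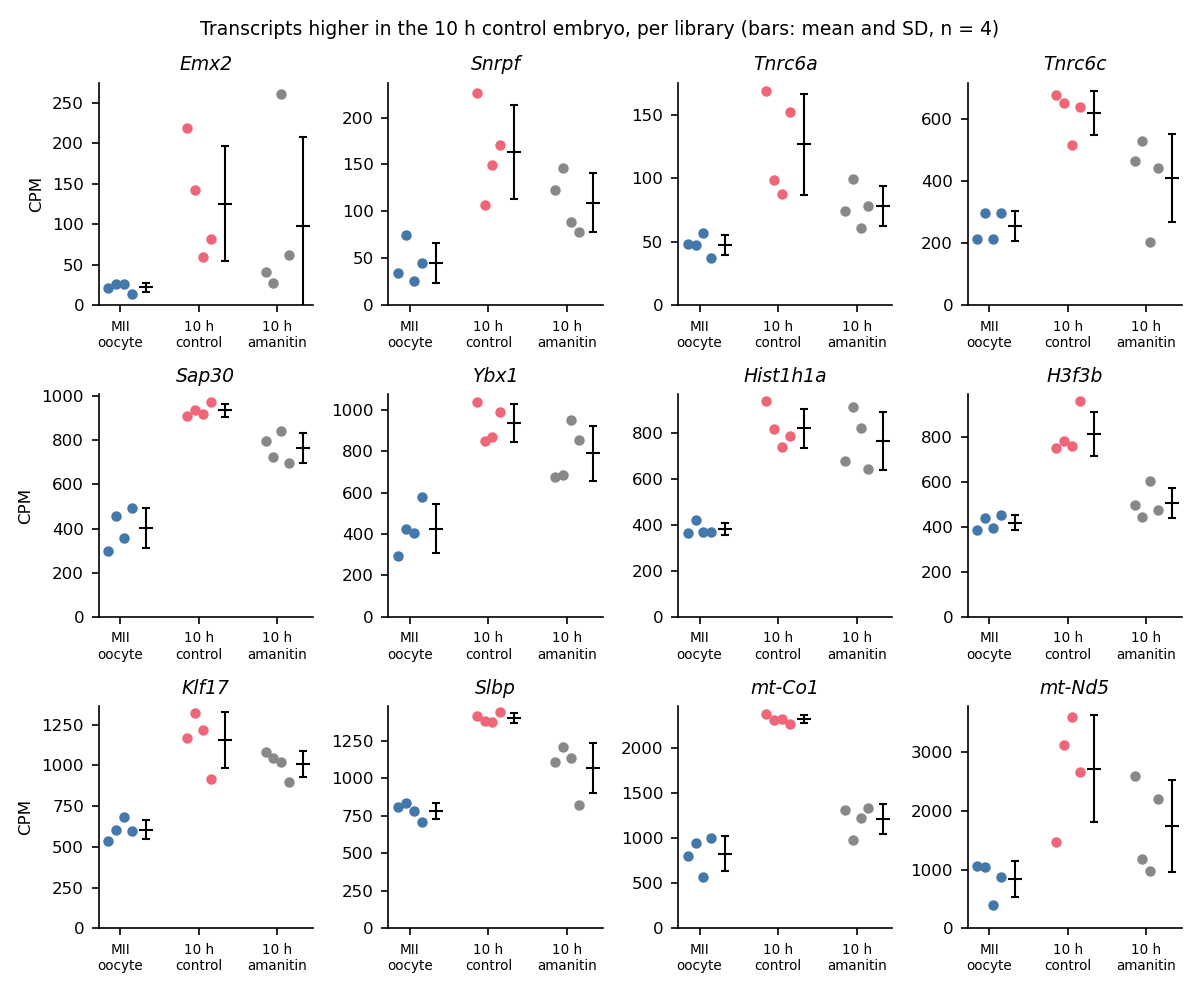
Points are CPM (TMM-scaled, linear axes from 0) of 12 transcripts in the 4 MII oocyte, 4 control embryo and 4 alpha-amanitin embryo libraries, with bars for mean and SD. In each panel all 4 control embryo values lie above all 4 oocyte values, as for Sap30 with 912 CPM or more against 494 or less.

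More chromatin regulators were called higher than lower. Of 54 DNA methylation and chromatin regulators 7 rose and 2 fell (median 0.28). Over all genes tested 1.11% were called higher and 1.78% lower. Calls favoured abundant genes, with a median oocyte level of 331 CPM in higher genes against 17.2 in all tested. The list's share was not set against genes of like level. Its rises numbered 3 without oocyte library 2 or 4 and 4 without oocyte library 3 or embryo library 4. Kmt2d, a histone H3 lysine 4 methyltransferase of enhancers, went from 1688, 1825, 1599.7 and 1753 to 2777, 3159, 2953 and 2747 CPM (log2 fold change 0.76, SE 0.15, edgeR adjusted p = 0.00762). Other rises included Zfp57, Dnmt3a, a de novo DNA methyltransferase (0.82), the remodeller subunits Smarca2 (0.83) and Arid1a (0.41), and the acetyltransferase gene Crebbp (0.59). Calls were lost for Dnmt3a without oocyte libraries 2, 3 or 4 or embryo libraries 1 or 4 (edgeR adjusted p = 0.0641 to 0.128) and for Smarca2 without oocyte libraries 2 or 4 (edgeR adjusted p = 0.0531 to 0.0579). They were also lost for Arid1a without any single oocyte library or any single embryo library or alpha-amanitin libraries 1 or 2 (edgeR adjusted p = 0.0623 to 0.181) or, with every library kept, with library totals as scaling (adjusted p = 0.0685) and for Crebbp without any single oocyte library or embryo libraries 2, 3 or 4 (edgeR adjusted p = 0.0508 to 0.102). Falls were seen for Trim28, the corepressor that ZFP57 recruits, from 246 ± 18.7 to 84.5 ± 28.2 CPM (log2 fold change -1.54, SE 0.30, edgeR adjusted p = 0.00582), and Dnmt1, the maintenance methyltransferase (-0.56), whose call was lost without oocyte libraries 2 or 4 or embryo libraries 1, 2 or 3 (edgeR adjusted p = 0.069 to 0.146) or, with every library kept, with upper quartile scaling (adjusted p = 0.0622). Zfp57 and Trim28, partners at imprinted loci, thus changed in opposite directions.

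Of 26 linker histones, replacement variants and histone partners 4 rose and 1, H1foo, fell. H3f3b, which encodes the replacement histone H3.3 laid on the sperm genome, held 387, 442, 398 and 453 CPM in oocytes and 751, 785, 762 and 963 in embryos (log2 fold change 0.96, SE 0.14, edgeR adjusted p = 0.000519), and 500.1, 447, 606 and 478 with alpha-amanitin. Slbp, which binds the stem-loop of replication histone mRNAs, went from 806, 835, 782 and 706 to 1412, 1379, 1372 and 1444 CPM (log2 fold change 0.84, SE 0.13, edgeR adjusted p = 0.000708), and Nasp, a histone chaperone, rose by 0.69, a call lost without any single oocyte library or embryo libraries 1, 3 or 4 (edgeR adjusted p = 0.0528 to 0.0736). Replication-dependent core histones had a median of 0.66 over 28 genes, with 0 called by edgeR, DESeq2 or limma voom and 2 at an unadjusted edgeR p under 0.05. Of 63 replication and G1/S genes (2 falls without embryo library 3 or 4 or alpha-amanitin library 3) Pold3, a subunit of DNA polymerase delta, rose 1.52-fold, E2f2, a transcription factor of S phase, 2.17-fold, and Orc4, of the origin recognition complex, fell 2.20-fold. The Pold3 call was lost without any single oocyte library or embryo libraries 2 or 3 or alpha-amanitin libraries 1 or 2 (edgeR adjusted p = 0.0593 to 0.167) or, with every library kept, with library totals as scaling or counts thinned to the smallest library (adjusted p = 0.0554 to 0.0695). The E2f2 call was lost without oocyte libraries 2, 3 or 4 or embryo libraries 1 or 2 (edgeR adjusted p = 0.0791 to 0.104), and the Orc4 call without oocyte libraries 1 or 4 or embryo library 2 (edgeR adjusted p = 0.0597 to 0.0732).

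In the nucleolus 3 of 64 ribosome biogenesis genes rose and 2 fell (median 0.17). The falls numbered 6 without alpha-amanitin library 3 and 1 without oocyte library 3, and in the 8 libraries alone 3 rose and 6 fell. Npm1, nucleophosmin, held 400.3, 429, 369.6 and 525 CPM in oocytes and 882, 666, 754 and 631 in embryos (log2 fold change 0.77, SE 0.16, edgeR adjusted p = 0.00831), and Wdr43 and Nolc1 rose by 0.91 and 0.77 on the log2 scale. The Nolc1 call was lost without any single oocyte library or embryo libraries 2 or 4 or alpha-amanitin library 2 (edgeR adjusted p = 0.0609 to 0.175) or, with every library kept, with no filter or library totals as scaling (adjusted p = 0.0515 to 0.0532). Utp4, a processome subunit, fell from 209 ± 39.8 to 55.3 ± 19.3 CPM, and Polr1a, the largest subunit of RNA polymerase I, from 124 ± 40.9 to 44.6 ± 15.1, a call lost without oocyte library 3 (edgeR adjusted p = 0.0891). At the nuclear envelope Lbr, the lamin B receptor, fell 6.14-fold and Sun1, a linker to the cytoskeleton, 3.34-fold, and the nuclear pore gene Nup50 rose 1.56-fold. The Lbr call was lost without any single oocyte library or any single embryo library or alpha-amanitin library 1 (edgeR adjusted p = 0.0539 to 0.139) or, with every library kept, with DESeq2 or the robust fit (adjusted p = 0.08 to 0.172). The Sun1 call was lost without oocyte libraries 1 or 4 (edgeR adjusted p = 0.0624 to 0.0991), and the Nup50 call without any single oocyte library or any single embryo library (edgeR adjusted p = 0.0509 to 0.14) or, with every library kept, with no filter (adjusted p = 0.0656).

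Genes of minor genome activation and the 2-cell stage were mostly scarce. Only 22 of 48 passed the filter, with 1 rise, Klf17, and 1 fall, Obox2. The rises numbered 5 without alpha-amanitin library 3, 2 without alpha-amanitin library 4 and 4 in the 8 libraries alone, and DESeq2 and limma voom called 6 and 5 members in all. Klf17 (chr4:117757836-117765648), a zinc finger activator of early embryonic genes, held 537, 605, 685 and 599 CPM in oocytes, 1167, 1320.4, 1215 and 917 in control embryos and 1080.5, 1044, 1021 and 899 with alpha-amanitin (log2 fold change 0.93, SE 0.14, edgeR adjusted p = 0.000451 for control embryo over oocyte). Usp17lc, of a multicopy deubiquitinase family, was at 0, 0.0429, 0.695 and 0 CPM in oocytes and 47.5, 33.6, 9.75 and 2.66 in embryos, with no overlap, but missed the threshold (edgeR adjusted p = 0.108). Alpha-amanitin embryos held 0 to 1.67 CPM of it. Zfp352 had 0 counts in all oocytes and 12.2, 31.6, 1.20 and 0 CPM in embryos, and Duxf3, a mouse Dux copy that activates 2-cell genes, 0 in all oocytes and 3.52, 4.07, 0 and 0 in embryos (edgeR adjusted p = 0.0818 and 0.193). Zscan4d was at 0.854 ± 1.17 and 2.19 ± 1.52 CPM. Only 4 genes in the whole table had 0 counts in the 4 oocytes and a count in each of the 4 embryos. They were Gm4835, Usp17ld, A230020J21Rik and Olfr1372-ps1, named after their values were seen. In embryos Usp17ld held 1.53 to 16.7 CPM (raw totals) and A230020J21Rik 0.0509 to 0.0913. Gm4835 and Olfr1372-ps1 went down to 0.0457 and 0.0541 CPM. Such levels lie under the 0.115 to 0.161 CPM that could go unseen in an oocyte library. Absence from oocytes is thus not shown for these 3 genes. The reverse, a count in each oocyte and 0 in the 4 embryos, held for 151 genes, of which 3 reached 10 CPM in oocytes. Their median oocyte level was 2.20 CPM. A floor of 3 counts over 4 libraries was 0.0399 CPM in embryos and 0.0325 in oocytes, and the part of depth in these numbers was not tested. Of the MYC network, 0 of 15 were called by edgeR or DESeq2, 0 by limma voom and 1 by voom with sample weights, and 2 had an unadjusted edgeR p under 0.05. Max, the partner of c-Myc, held 149, 174, 161 and 193 CPM in oocytes and 292, 207, 215 and 273 in embryos (log2 fold change 0.54, SE 0.20, edgeR adjusted p = 0.184), and Myc itself had 53 counts in embryo library 2 and 0 in the other 7 libraries.

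**Figure D5:**
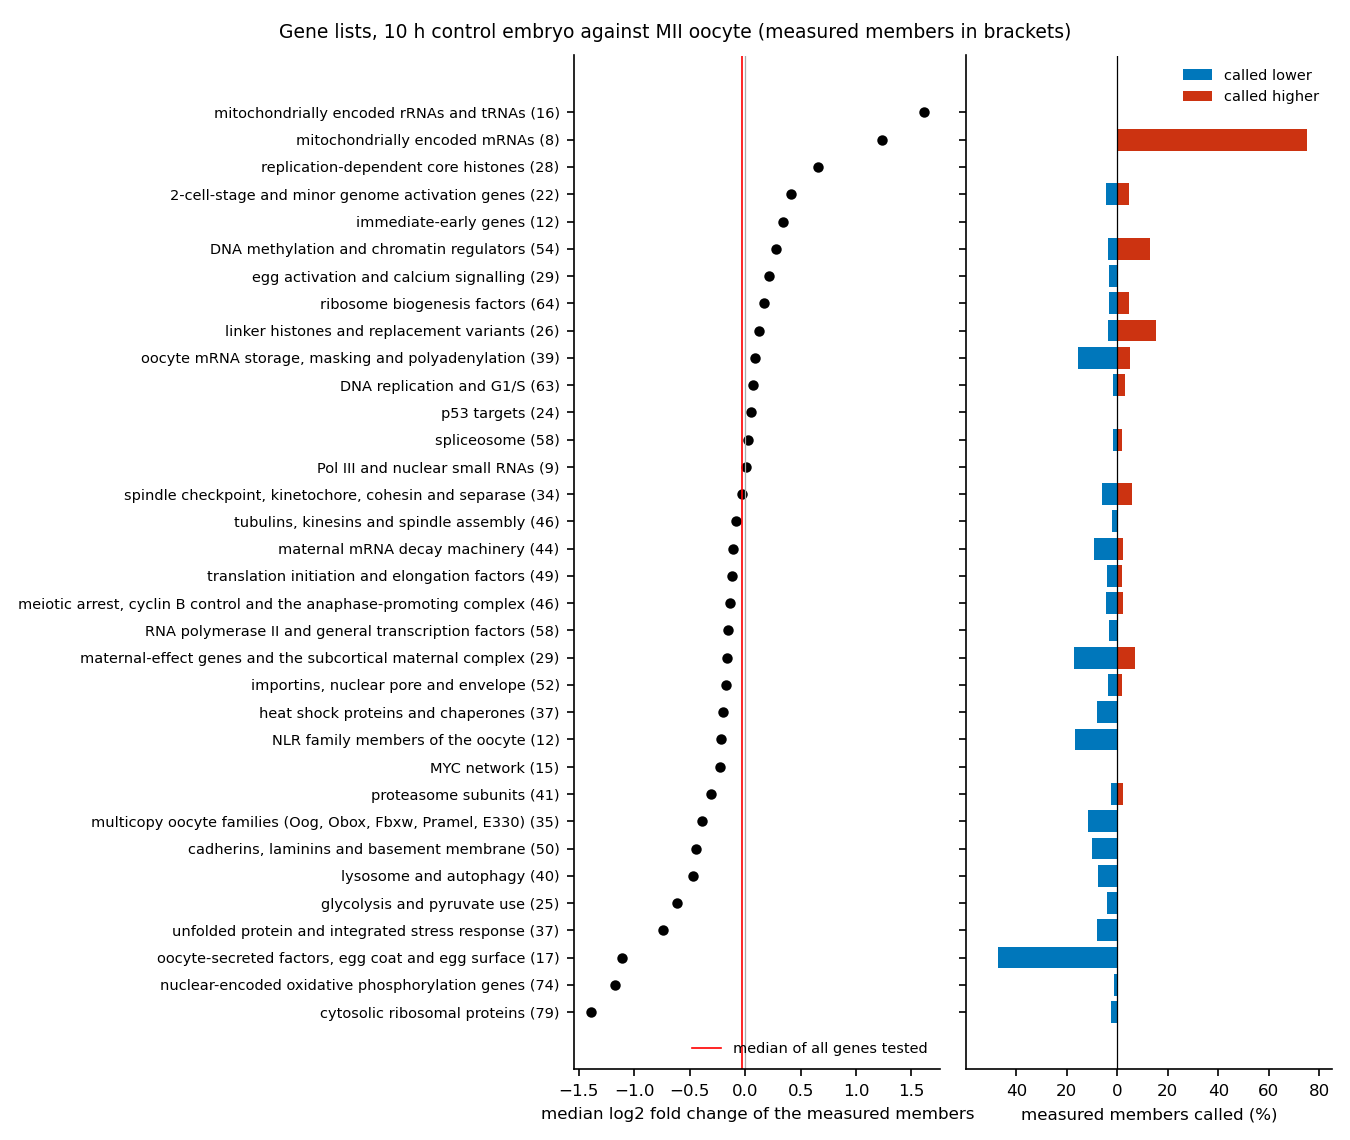
Left, the median log2 fold change (embryo over oocyte) of the measured members of each gene list, with their number in brackets and the median of all genes as a red line. Right, the percent of those members called lower (blue) or higher (red), from 0 at the centre. Mitochondrial mRNAs and egg coat and secreted factors have the highest shares called of the lists drawn, 6 of 8 and 8 of 17 members, while ribosomal proteins have the lowest median with 2 of 79 called.

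Several lists had few or no calls. Over all genes tested 2.89% were called in either direction, so that such counts in lists of this size say little. edgeR called 0 of 24 p53 targets, 0 of 12 immediate-early genes and 0 of 9 small nuclear RNAs and RNA polymerase III products, each with 1 at an unadjusted p under 0.05. DESeq2 called 0, 1 and 0 of them and limma voom 1 of each. Egg activation and calcium genes had 1 fall in 29 (2 without embryo library 4 or alpha-amanitin library 3), the zinc transporter Slc39a10 (-0.81), a call lost without oocyte libraries 1, 3 or 4 or embryo libraries 1 or 2 (edgeR adjusted p = 0.0547 to 0.0946). Tubulins, kinesins and spindle assembly genes had 1 in 46 (2 without alpha-amanitin library 3), the tubulin Tubb6 (-1.54). RNA polymerase II and general transcription factors had 2 in 58 (4 without alpha-amanitin library 3), Polr2d (-1.61) and the Mediator subunit Med14 (-0.93), and no rise. The Med14 call was lost without oocyte libraries 2, 3 or 4 or embryo libraries 1, 2 or 4 (edgeR adjusted p = 0.0776 to 0.15) or, with every library kept, with RLE scaling or upper quartile scaling (adjusted p = 0.0523 to 0.0632). Of 41 proteasome genes (3 falls and 2 rises without alpha-amanitin library 3) Psmc2, an ATPase of the regulatory cap, fell by 1.62 on the log2 scale and Psme3, an activator subunit, rose by 0.69. The Psmc2 call was lost without any single oocyte library or embryo libraries 1 or 2 (edgeR adjusted p = 0.0637 to 0.0945).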

How the data were processed

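RNA of mouse MII oocytes and 1-cell embryos was sequenced from total RNA libraries made with a stranded low-input SMARTer kit, per the labels' protocols. What the authors deposited is 1 table of unnormalised read counts, whole numbers for 55401 Ensembl IDs in 26 libraries. Per the submitters' processing notes, cutadapt 1.7.1, STAR 2.5.0a and GRCm38 were used. No source used here gives the counting program or its strand setting, so that overlapping and antisense genes and multicopy families are uncertain. Symbols, for 55141 IDs, coordinates and 3′UTRs came from GENCODE vM21.

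Counts of the 12 second-series libraries were fitted in R 4.3.3 with edgeR 4.0.16 (TMM, filterByExpr with a minimum count of 10 and total of 15, quasi-likelihood F test, Benjamini-Hochberg threshold 0.05, contrast control embryo minus oocyte), after tests on simulated data. The biological coefficient of variation was 1.12. CPM beside fold changes use TMM-scaled totals, list sums and first-series values raw totals. Alternatives used DESeq2 1.42.0, limma 3.58.1, other filters, scalings and sets of libraries. Donors are not named in the labels, and the p-values therefore reflect only how these libraries vary, which may be technical.

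The comparison and the 37 gene lists were chosen with earlier results of these data known. Genes named were the 14 largest rises and falls among calls averaging 10 CPM or more with groups that did not overlap (without predicted genes and pseudogenes), up to 4 called members with the smallest p of each list with 3 or more, and 23 always included. Of the genes so picked, 2 are not reported here. Other called members of lists and any other gene named were chosen after their values were seen.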

Additional observations from a re-analysis of the deposited data

Results flagged for a closer look

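Within groups of 4 libraries, 9 of the 197 tested had a highest or lowest value far from the others, and chance flags about 1 in 20. Among embryos, Eif3l was at 9.42 CPM in library 1 against 1.06 to 1.74 in the others, and Zar1 at 298 CPM in library 1 against 185 to 197. Embryo library 4 held 963 CPM of H3f3b against 751 to 785. Among oocytes, library 3 held 185 CPM of Polr1a against 100.3 to 110.2 in the others, 2095 CPM of Btg4 against 1894 to 1914, 204 CPM of mt-Nd4 against 294 to 304, and 0.695 CPM of Usp17lc against 0 to 0.0429. Oocyte library 4 held 138 CPM of Mknk1 against 85.8 to 90.1. Oocyte library 2 held 421 CPM of Hist1h1a against 364 to 371.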

How the results depend on the processing

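As reported, 146 genes were higher and 234 lower. No called gene changed sign in any of the 25 alternative fits. Counts of higher and lower genes rose to 286 and 484 with DESeq2, 280 and 660 with limma voom, 401 and 601 with voom and sample weights, and 293 and 471 in the 8 libraries alone; higher genes numbered 220 with upper quartile scaling. Leaving out 1 library at a time gave 63 to 291 higher and 146 to 434 lower genes. The median of all genes shifted by -0.29 with voom, -0.30 with weights and -0.18 with the replicate block. With the replicate numbers of the labels as a block, 129 were higher and 213 lower, 124 and 197 of them shared with the fit without it. Among the 86 called genes picked by the naming rule, 6 were lost with it: Xrcc1, Eif3g, Lbr, Obox2, Lamp1 and Pold3. Deviations of same-numbered oocyte and embryo libraries correlated by -0.014 to 0.011, and those of other pairs by -0.037 to 0.021. No pairing was seen, but noise between libraries could hide one. Of the 86 called genes that the naming rule picks, 60 were called in all 25 fits and 75 in the 13 that kept every library, where tested. With mitochondrial genes left out of the table, the mitochondrial lists had no value. mt-Nd5 lost its call with the robust fit (edgeR adjusted p = 0.0505). Depth limits the scarce genes: with 0 counts, up to 0.198 CPM could go unseen in an embryo library, and few genes under 10 CPM were called.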

Other observations

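Some called genes outside the lists, named after their values were seen and not tested as a group, are given here as single values. Falls were measured for P4hb and Txndc5, protein disulphide isomerases (-2.47 and -1.26 on the log2 scale), Dnajc10, a reductase partner of the chaperone BiP (-2.88), Stt3a, a catalytic subunit of the oligosaccharyltransferase (-2.30), Mlec, a lectin for glucosylated glycans (-2.27), and Arcn1, a coat subunit of vesicles that return from Golgi to endoplasmic reticulum (-2.25). P4hb held 152, 156, 155 and 207 CPM in oocytes and 45.8, 29.3, 11.3 and 34.7 in embryos, and Stt3a 121, 133, 129 and 159.8 and 23.8, 14.4, 21.4 and 50.3. At the surface, Gja4, the connexin of the junctions between oocyte and cumulus cells, held 286, 289, 218 and 446 CPM in oocytes and 58.0, 83.0, 81.7 and 28.8 in embryos (log2 fold change -2.30, SE 0.36, edgeR adjusted p = 0.000838), and the log2 fold changes of Jag1, Adam10 and Adam17 were -1.67, -1.58 and -1.15.

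Signalling and transcription genes outside the lists, also named after their values were seen, moved both ways. Mtor, the growth kinase, fell from 109 ± 22.4 to 25.6 ± 13.0 CPM (log2 fold change -2.09, SE 0.40, edgeR adjusted p = 0.00505), and Smad3, a mediator of TGF-beta signals, fell by 0.74 on the log2 scale. Pou5f1, the pluripotency factor OCT4, rose from 162 ± 15.4 to 290.4 ± 50.5 CPM (log2 fold change 0.84, SE 0.20, edgeR adjusted p = 0.0212), a call lost without any single oocyte library or embryo libraries 2 or 4 (edgeR adjusted p = 0.0561 to 0.104), and Ncor1, a nuclear receptor corepressor, from 163 ± 42.1 to 355 ± 29.1.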
